A study of Cyprinus carpio with 18 samples.

Results

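The miR-203 family was followed through 6 stages of early development of the common carp, Cyprinus carpio, in small RNA libraries of whole embryos and larvae. Its members were every named microRNA of family miR-203, whatever its letter or arm, which gave 3 of the 2888 microRNAs counted: ccr-miR-203a, ccr-miR-203b-3p and ccr-miR-203b-5p, written here without the carp prefix. The 2888 comprised 146 named and 2742 predicted microRNAs. All groups were untreated, naturally spawned fish of 1 selected farmed strain, FFRC No.2. Embryos were taken at 2 h (cleavage), 6 h (blastocyst), 12 h (gastrulation), 20 h (organ formation) and 64 h (hatching) after fertilization, and the last group was larva, 1 day after hatching. Each stage had 3 libraries, 18 in all. Total RNA was pooled within a stage, per the labels' protocols, and whether its 3 libraries go back to different spawnings is not stated. P-values thus rest on the spread between libraries, and that spread may be technical.

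miR-203 is known as a microRNA of stratified epithelium: in mouse skin it is made as keratinocytes leave the basal layer, where it represses the transcription factor p63 and limits proliferation. In zebrafish it represses Lef1, a mediator of Wnt signalling, in the regenerating fin. A microRNA hairpin is cut into a duplex of a 5p and a 3p arm, of which mostly a single strand is kept in the silencing complex while the other is degraded. For miR-203 of vertebrates the 3p strand is the one known as active. miR-203a and miR-203b-3p have near-identical mature sequences in zebrafish. How reads matching both were assigned in carp was not stated, so the split between these 2 members is uncertain. The libraries hold RNA of whole embryos, so fewer cells of a type and less RNA per cell cannot be told apart, and a level says nothing of the tissue it came from.

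Libraries held 60779 to 8427601 counts, of which the 6 from hatching and larva had 4964459 or more and the 12 earlier ones 438398 or fewer. miR-430, a microRNA made in large amounts when the embryo's own genome is activated, took 72.6 to 79.8% of the counts in blastocyst libraries and 38.3 to 58.9% in gastrulation, against 0.174 to 1.55% in cleavage. A share of all counts and a level scaled by TMM, which sets most microRNAs level between libraries, therefore differ between these stages. TMM factors were 0.196 to 0.422 in blastocyst, and 0.283, 0.638 and 0.714 in gastrulation 1, 2 and 3. A list of 18 microRNAs of late tissues (muscle, brain, sensory cells and eye) stood at 19037, 10201 and 5424 counts in each 1e6 listed counts in cleavage 1, 2 and 3, at 779 in blastocyst 1 but at 7479 and 12737 in blastocyst 2 and 3, and at 3436, 19135 and 11788 in gastrulation 1, 2 and 3. In gastrulation 14 to 15 of the 18 were detected, while miR-124a, miR-124b and miR-138 of the brain were at 0 in all 3 libraries. The part of such microRNAs in the results was not tested. For the members and the arm ratio, stage contrasts that rest on blastocyst and passed are also given without blastocyst 2, blastocyst 3 and gastrulation 2. These libraries were chosen from earlier results of these data. That omission keeps gastrulation 3 and the cleavage libraries, at 11788 and 5424 to 19037, and leaves blastocyst 1 alone for its stage, assumed to vary like the other stages. With miR-430 left out of the counts, the list stood at 27252, 47127.5 and 46529 in blastocyst 2, blastocyst 3 and gastrulation 2. It then stood at 3853 in blastocyst 1, 8319 in gastrulation 1, 19099 in gastrulation 3 and 5433 to 19103 in cleavage.

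miR-203b-3p, the arm known as active, was the most counted member in 17 of 18 libraries. It had 56 to 522 counts in the 12 earlier libraries and 12018 to 18586 in the 6 later, deeper ones. Its level, in TMM-scaled counts per 1e6 (TMM-scaled CPM), was 715, 2148 and 902 in cleavage 1, 2 and 3, then 660.4, 624 and 983 in blastocyst. Gastrulation libraries had 4680.3, 2083 and 1301, those of organ formation 2573, 3194 and 2153. The level was 1756, 2943 and 1472 in hatching libraries and 1539, 1464 and 1093 in larva. The blastocyst libraries thus lay below every library of the 4 later stages and overlapped those of cleavage, and gastrulation 1 lay above the other 17 libraries. The place of gastrulation 1 depended on its TMM factor, 0.283. Of each 1e6 listed counts it had 1323.6, beside 1328 in gastrulation 2 and 3698 to 4755 in organ formation. Stage means of TMM-scaled CPM ran from 756 ± 197 (blastocyst) to 2688 ± 1769 (gastrulation) and 2639.8 ± 524 (organ formation; SD, n = 3 each). Those 2 highest stages differed by far less than their spread.

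miR-203a is listed as a single mature form with no arm in its name. It had 32 to 517 counts in the earlier libraries and 7675 to 12159 in the later ones. Its TMM-scaled CPM was 385, 2501 and 824 in cleavage, 377, 574 and 659 in blastocyst and 2535, 1001 and 650.4 in gastrulation libraries 1, 2 and 3. Organ formation had 1999, 1768 and 1072, hatching 1149, 1961 and 940.1, and larva 934, 945 and 610.0. Blastocyst again had the lowest stage mean, 537 ± 144.3 (SD, n = 3), but its libraries overlapped those of cleavage, gastrulation and larva, and the other stage means lay between 829.6 and 1613. The spread of cleavage came from cleavage 2, the library with the second highest level of all.

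miR-203b-5p, the less abundant arm of the miR-203b hairpin, had 1, 9 and 3 counts in the cleavage libraries, 1, 4 and 4 in those of blastocyst, 27, 31 and 15 in gastrulation and 20, 8 and 21 in organ formation. Hatching libraries had 602, 566 and 427 counts, larva libraries 424, 434 and 669. With 0.0513 counts behind 1 TMM-scaled CPM in gastrulation 1 and 16.2 in larva 3, the early levels rest on few reads each. Stage means were 27.2 ± 20.2, 20.7 ± 8.48, 285 ± 212, 104 ± 29.4, 66.9 ± 21.4 and 42.3 ± 2.11 TMM-scaled CPM in order of age (SD, n = 3). The gastrulation libraries, with 527, 194 and 134, lay above all those of cleavage, blastocyst, hatching and larva and overlapped organ formation.

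**Figure D1:**
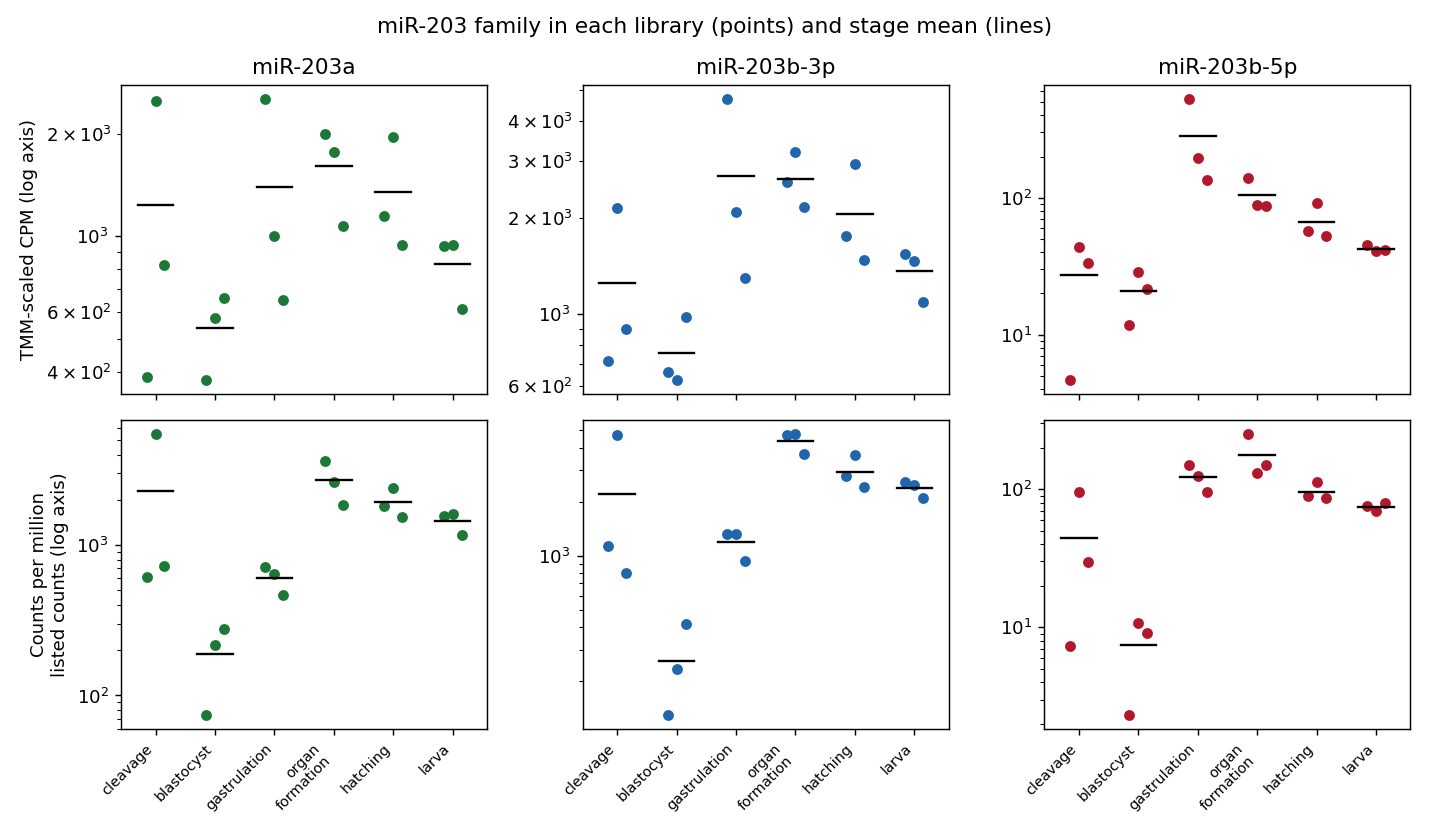
Level of each miR-203 member in each library (points, libraries 1 to 3 from left to right within a stage) and the stage mean (lines), as TMM-scaled CPM in the upper row and as counts per 1e6 listed counts in the lower row, both on log axes. Under both scalings the blastocyst mean is the lowest of each member. The highest mean of miR-203b-5p is that of gastrulation for TMM-scaled CPM, 285, and that of organ formation for counts per 1e6 listed counts, 177.

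Ordered by mean share among the 146 named microRNAs, miR-203b-3p ranked 37, 46, 33, 24, 39 and 44 from the youngest to the oldest stage. miR-203a ranked 36, 54, 48, 35, 45 and 50, and miR-203b-5p 108, 117, 73, 84, 100 and 113. The active arm and miR-203a thus reached their highest place in organ formation and miR-203b-5p in gastrulation.

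All 3 members were counted in every library, those of cleavage included, a stage before the embryo has a skin. Of each 1e6 listed counts the family held 1753, 10286 and 1552 in cleavage 1, 2 and 3, so that cleavage 2 was the highest of all 18 libraries. It held 205.7, 462 and 703 in blastocyst, 2189, 2089.7 and 1489 in gastrulation and 8543, 7519 and 5689 in organ formation. Hatching libraries had 4682, 6129.8 and 4053, larva libraries 4229.9, 4164 and 3346. On this scale no blastocyst library overlapped any other stage, and organ formation lay above gastrulation and larva. For how many of all microRNAs the same holds was not counted. With library totals the median log2 fold change of the 328 microRNAs tested was −1.97 from cleavage to blastocyst, and 29.9% were called lower.

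From cleavage to blastocyst no member passed the test on TMM-scaled counts, where 7.62% of the 328 microRNAs tested did. The log2 fold change of miR-203a was −1.20 (SE 0.63, adjusted p = 0.282), that of miR-203b-3p −0.73 (SE 0.50, adjusted p = 0.472) and that of miR-203b-5p −0.34 (SE 0.77, adjusted p = 1). Without blastocyst 2, blastocyst 3 and gastrulation 2 the values in the same order were −1.75, −0.96 and −1.18, with 1 blastocyst library left. With library totals as the scale all 3 fell, with log2 fold changes of −3.58 (adjusted p = 0.00324), −3.09 (adjusted p = 0.00251) and −2.54 (adjusted p = 0.0250), where 29.9% of microRNAs were called lower. The median of all 328 microRNAs was then −1.97, against 0 with TMM. The rise of miR-430 moved with this result, and its part was not tested.

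Between blastocyst and gastrulation both arms of miR-203b rose and miR-203a did not pass. The log2 fold change was 3.73 for miR-203b-5p (SE 0.79, adjusted p = 0.00925) and 1.83 for miR-203b-3p (SE 0.51, adjusted p = 0.0464). Neither arm's libraries overlapped between the stages, but the share of all microRNAs without overlap was not counted. Of the 328 microRNAs tested, 3.05% were called higher. miR-203a had 1.37 (SE 0.64, adjusted p = 0.202) and overlapping libraries. With library totals the values were 4.05 (adjusted p = 0.0101) for miR-203b-5p, 2.20 (adjusted p = 0.0430) for miR-203b-3p and 1.68 (adjusted p = 0.168) for miR-203a, where 3.96% were called higher and the median was 0.52.

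The rise of miR-203b-5p held with any 1 library left out, with a log2 fold change of 2.96 without gastrulation 1 (adjusted p = 0.0440 or less in all omissions). That of miR-203b-3p passed only without cleavage 2, cleavage 3 or gastrulation 3, with values of 1.16 to 2.16 over the 18 omissions and adjusted p of up to 0.207, the value without gastrulation 1. Over 12 alternatives in scaling, filter, test and libraries, miR-203b-3p kept its call in 3 and miR-203b-5p in 10. Without blastocyst 2, blastocyst 3 and gastrulation 2, neither arm passed: miR-203b-5p had 4.22 (adjusted p = 0.0905) and miR-203b-3p 1.60 (adjusted p = 0.243). The first of these rests on 1 read of miR-203b-5p in blastocyst 1, the only blastocyst library then left, and its size can be given no weight.

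From gastrulation to organ formation no member passed with TMM, where 6.10% of microRNAs did. miR-203a had 0.22 (SE 0.62, adjusted p = 1), miR-203b-3p −0.02 (SE 0.50, adjusted p = 1) and miR-203b-5p −1.43 (SE 0.71, adjusted p = 0.223). The direction of the miR-203b arms depended on the scale: with library totals miR-203b-3p rose, with 1.87 (adjusted p = 0.0453), and miR-203b-5p had 0.53 (adjusted p = 0.788), where 12.5% were called higher. The median over all microRNAs was 0.42 with library totals and −0.31 with TMM.

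From organ formation to hatching, where 27.1% of microRNAs were called, miR-203a had −0.26 (SE 0.62, adjusted p = 0.812), miR-203b-3p −0.36 (SE 0.50, adjusted p = 0.637) and miR-203b-5p −0.64 (SE 0.69, adjusted p = 0.542), beside a median of 0.87 over all microRNAs (0.06 with RLE factors). Both miR-203b arms were called lower here with DESeq2 (−1.27 and −1.55, adjusted p = 0.0297 and 0.0187), with named microRNAs only and with the 2 stages alone. With the 2 stages alone miR-203a was called lower too. Both arms were called higher, as was miR-203a, with unlisted predicted microRNAs set to 4 counts (4.98 to 5.46), where 613 microRNAs were called. That setting gives the same 4 counts to libraries of any depth, so an unlisted microRNA takes a larger share of a shallow library. Its fold changes between shallow and deep stages thus cannot be read as changes of the members. From hatching to larva, where 0.305% were called, the 3 members in the same order had −0.70, −0.59 and −0.66 (SE 0.62, 0.50 and 0.68, and adjusted p = 0.699, 0.699 and 0.743). Over the whole span, larva against cleavage, 61.0% of microRNAs were called but no miR-203 member. miR-203a had −0.58 (SE 0.62, adjusted p = 0.446), miR-203b-3p 0.12 (SE 0.50, adjusted p = 0.873) and miR-203b-5p 0.66 (SE 0.72, adjusted p = 0.451). With unlisted predicted microRNAs set to 4 counts all 3 were called higher in larva, with 5.39, 6.11 and 6.81 (highest adjusted p = 6.37e-05). So many microRNAs were called there, 668, and the same limit of depth holds. Of the single libraries cleavage 1 and 2 moved the values most: without cleavage 1 miR-203a was lower in larva, at −1.56 (adjusted p = 0.0280), whereas without cleavage 2 it was at 0.46 (adjusted p = 0.535).

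**Figure D2:**
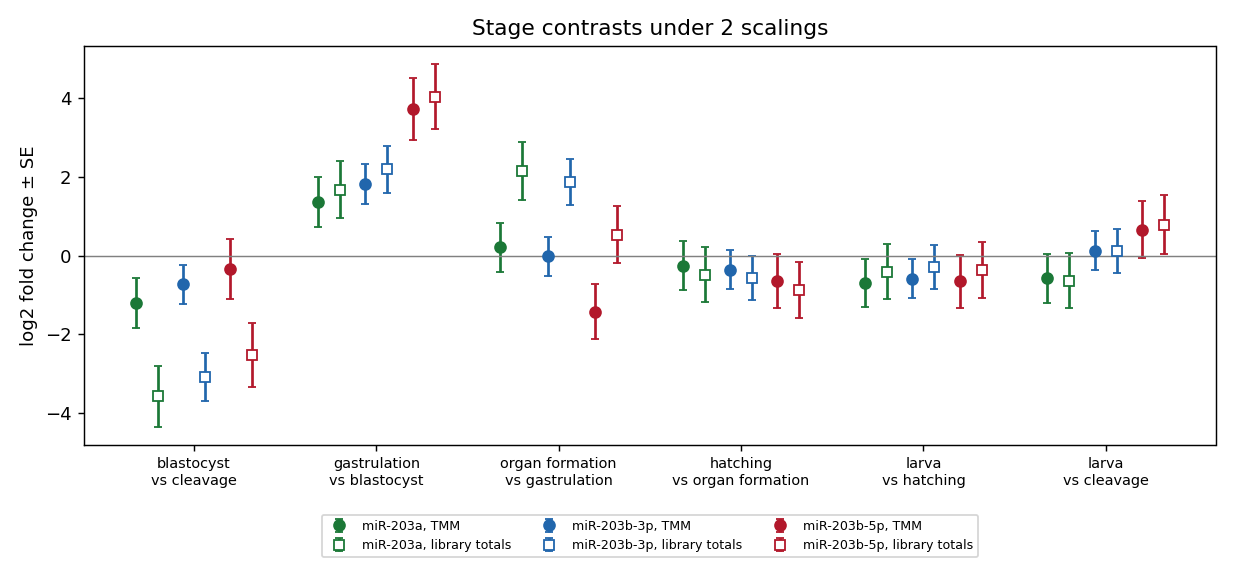
Log2 fold change of each miR-203 member (± SE, edgeR, 3 libraries per stage) between neighbouring stages and between larva and cleavage, with TMM scaling (filled circles) and with library totals (open squares). The rise of the miR-203b arms from blastocyst to gastrulation passes under both scalings and miR-203a passes under neither, while the step before it and the step after it move with the scale. Over 12 alternatives in processing the rise of miR-203b-3p kept its call in 3 and that of miR-203b-5p in 10.

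Over all 15 stage pairs miR-203a differed in 0, with a lowest adjusted p of 0.0849, between hatching and blastocyst. miR-203b-3p differed in 3 pairs, each of them with blastocyst as the lower stage. Besides gastrulation, organ formation was higher than blastocyst, with 1.80 (SE 0.51, adjusted p = 0.0263), where 6.71% of microRNAs were higher, and so was hatching, with 1.44 (SE 0.51, adjusted p = 0.0270), where 28.4% were. The first call ended without blastocyst 2, organ formation 1 or organ formation 2 (1.64 to 1.82, adjusted p = 0.0515 to 0.0755), and the second without cleavage 1, blastocyst 1, blastocyst 2 or hatching 2 (0.93 to 1.32, adjusted p = 0.0818 to 0.144).

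Both calls also depended on the processing. That of organ formation ended without blastocyst 2, blastocyst 3 and gastrulation 2 (1.88, adjusted p = 0.0996), with no filter (1.67, adjusted p = 0.309) and with unlisted predicted microRNAs set to 4 (1.86, adjusted p = 0.357), and was 4.07 with library totals (adjusted p = 0.000344). That of hatching ended in 7 of 12 alternatives: RLE factors (0.58, adjusted p = 0.326), DESeq2 (0.58, adjusted p = 0.323), named microRNAs only (0.17, adjusted p = 0.811), at least 10 CPM in 3 libraries (0.74, adjusted p = 0.193), no filter (0.69, adjusted p = 1), the 2 stages alone (0.98, adjusted p = 0.0725) and without those 3 libraries (0.82, adjusted p = 0.403). It was 3.50 with library totals and 7.19 with unlisted ones set to 4.

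miR-203b-5p differed in 6 of the 15 pairs. Gastrulation stood 3.39 higher than cleavage on the log2 scale (SE 0.78, adjusted p = 0.00778), where 12.8% of microRNAs were higher. Hatching and larva differed from gastrulation, by −2.07 for the former (SE 0.71, adjusted p = 0.0311) and −2.73 for the latter (SE 0.73, adjusted p = 0.0105), where 21.0% and 24.1% were lower. The call for hatching ended without gastrulation 1, hatching 1, hatching 2 or hatching 3 (−2.37 to −1.29, adjusted p = 0.0524 to 0.167). With library totals these 3 differences were 1.50 (adjusted p = 0.131), −0.35 (adjusted p = 0.689) and −0.72 (adjusted p = 0.406), and none passed. They did not pass with TPM totals or with no filter either. With unlisted predicted microRNAs set to 4, the rise over cleavage was 2.46 (adjusted p = 0.0864). Hatching and larva were then called higher than gastrulation, with 4.40 and 4.35, values that this setting ties to depth. With the 2 stages alone the rise over cleavage was 2.71 (adjusted p = 0.0596), and with a replicate block hatching against gastrulation was −2.09 (adjusted p = 0.0561).

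For miR-203b-5p organ formation was also higher than cleavage, with 1.96 (SE 0.74, adjusted p = 0.0481), where 18.3% were higher, and than blastocyst, with 2.30 (SE 0.76, adjusted p = 0.04996). These last calls were marginal: each held in 4 of 18 omissions, the former without cleavage 2, blastocyst 1, gastrulation 1 or gastrulation 3 and the latter without cleavage 1, cleavage 2, gastrulation 1 or gastrulation 3, and their highest adjusted p over omissions were 0.119 and 0.120. The difference from blastocyst was 4.58 with library totals (adjusted p = 0.000966) and 4.66 with TPM totals, and ended without blastocyst 2, blastocyst 3 and gastrulation 2 (3.05, adjusted p = 0.119), with a replicate block (2.31, adjusted p = 0.0797), with no filter (2.22, adjusted p = 0.906), with at least 10 CPM in 3 libraries (2.28, adjusted p = 0.0538) and with unlisted ones set to 4 (2.40, adjusted p = 0.137). That from cleavage was 1.78 to 2.65 over the alternatives and passed in 5 of 12.

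A test of any change over the 6 stages, which 75.3% of microRNAs passed, gave F = 8.04 (adjusted p = 0.00269) for miR-203b-5p, F = 3.80 (adjusted p = 0.0306) for miR-203b-3p and F = 1.61 (adjusted p = 0.241) for miR-203a. The call for miR-203b-3p ended without blastocyst 2 (F = 2.77, adjusted p = 0.0769) or organ formation 2 (F = 3.22, adjusted p = 0.0541). It also ended with no filter (F = 3.81, adjusted p = 0.0632) and without blastocyst 2, blastocyst 3 and gastrulation 2 (F = 2.93, adjusted p = 0.0799). miR-203b-5p did not pass with no filter (F = 4.30, adjusted p = 0.0587). miR-203a passed without cleavage 1 (F = 4.30, adjusted p = 0.0246), with library totals (F = 6.30, adjusted p = 0.00464), with TPM totals (F = 6.53, adjusted p = 0.00414), with named microRNAs only (F = 2.59, adjusted p = 0.0489) and with unlisted predicted ones set to 4 (F = 37.0).

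The balance of the miR-203b arms was compared within each library, which needs no scaling between libraries. The 5p arm made up 10.1, 8.52 and 9.32% of miR-203b counts in gastrulation 1, 2 and 3, with exact (Clopper-Pearson) 95% intervals of 6.77 to 14.4, 5.86 to 11.9 and 5.31 to 14.9%. In the cleavage libraries it made up 0.645, 1.99 and 3.57%, and in the blastocyst libraries 1.75, 4.40 and 2.15%. Organ formation libraries had 5.10, 2.69 and 3.87%, hatching libraries 3.14, 3.02 and 3.43% and larva libraries 2.82, 2.71 and 3.65%. The 3 gastrulation libraries thus lay above the other 15. For how many other microRNAs with both arms a stage lay apart in this way was not counted. The mean was 9.32 ± 0.798% in gastrulation against stage means of 2.07 to 3.89% elsewhere (SD, n = 3). In counts, the 3p arm was 9.79 ± 0.928 times the 5p arm in gastrulation and 32.2 ± 5.09 times in larva.

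**Figure D3:**
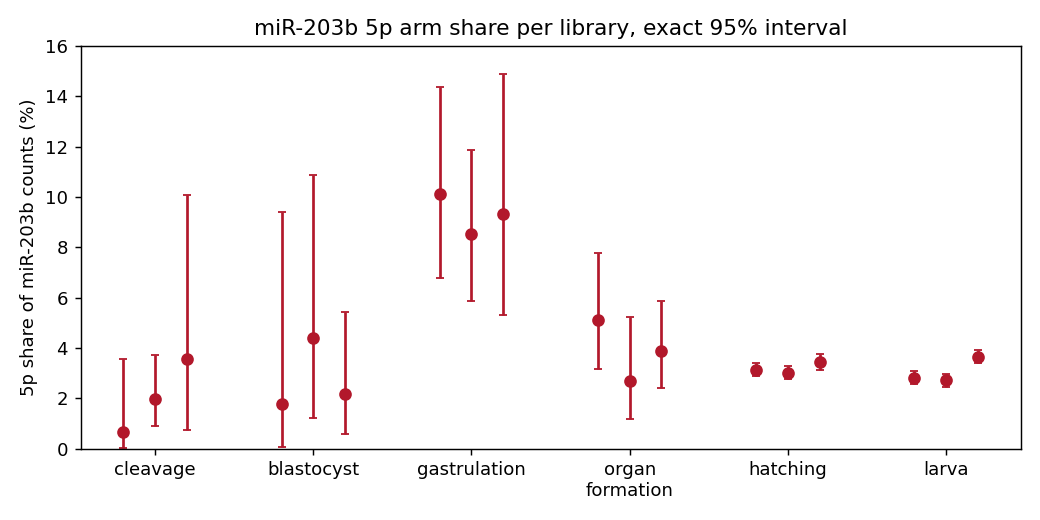
Share of miR-203b counts that came from the 5p arm in each library, in percent, with exact 95% intervals for counting error only (libraries 1 to 3 from left to right within a stage). The gastrulation libraries lie between 8.52 and 10.1%, above the other 15, whose intervals are wide in cleavage and blastocyst and narrow in hatching and larva. How many other microRNAs with both arms have a stage apart in this way was not counted.

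The intervals of blastocyst 1 (0.0444 to 9.39%), blastocyst 2 (1.21 to 10.9%) and cleavage 3 (0.743 to 10.1%) each reached into the gastrulation range, with 1, 4 and 3 reads of the 5p arm behind them. In larva 1, with 424 such reads, the interval was 2.57 to 3.10%. Intervals cover counting error of reads only. Reads carried no molecular identifiers to count molecules by, so counting error of molecules may be larger.

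The log2 ratio of the 5p to the 3p arm differed between stages, with F = 5.79 and an adjusted p of 0.00500 over the 9 microRNAs tested with both arms (limma), 55.6% of which passed. A permutation test of the F ratio, on miR-203b alone, gave F = 6.21 and p = 0.00357 (100000 permutations). From blastocyst to gastrulation the log2 ratio rose, with a difference of 1.69 (SE 0.46, adjusted p = 0.0151), and miR-203b was the only one of the 9 called higher (11.1%), with 0 called lower. From gastrulation to organ formation it fell, with −1.37 (SE 0.46, adjusted p = 0.0183), a step where 33.3% of the pairs were called lower and 33.3% higher.

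Of the 15 stage pairs 5 passed, and each had gastrulation as the stage with the higher 5p share. Against cleavage the difference was 2.33 (adjusted p = 0.000228, where 11.1% of the 9 were higher). Hatching and larva differed from gastrulation by −1.66 (adjusted p = 0.00585) and −1.74 (adjusted p = 0.00408), where 22.2% and 11.1% were lower. The change from organ formation to hatching was −0.30 (SE 0.46, adjusted p = 0.679) and that from hatching to larva −0.07 (SE 0.46, adjusted p = 0.910).

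The rise of the ratio into gastrulation stood between 1.50 and 2.03 with each library left out and passed in 14 of the 18 omissions. It missed the threshold without blastocyst 1 (adjusted p = 0.0539), blastocyst 3 (0.0887), gastrulation 1 (0.0611) or gastrulation 3 (0.0521). The later fall missed it without gastrulation 1 (−1.30, adjusted p = 0.0548) or organ formation 2 (−1.14, adjusted p = 0.0903). Without blastocyst 2, blastocyst 3 and gastrulation 2 the rise into gastrulation did not pass, at 2.05, a value whose blastocyst side is 1 read of the 5p arm among 57 in blastocyst 1. With libraries weighted by the precision that their counts give, the rise was 1.61 (adjusted p = 0.697) and the fall was −1.25 (adjusted p = 0.156). The difference from cleavage was 2.16 (adjusted p = 0.233), and each of these calls ended. The F of the weighted fit was 1.35 (adjusted p = 1.00). That F cannot decide any change over the stages, since it used the correlations between contrasts of a fit without weights. The differences of hatching (−1.66, adjusted p = 0.00246) and larva (−1.68, adjusted p = 0.00335) from gastrulation passed with these weights. The cause was not tested.

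**Figure D4:**
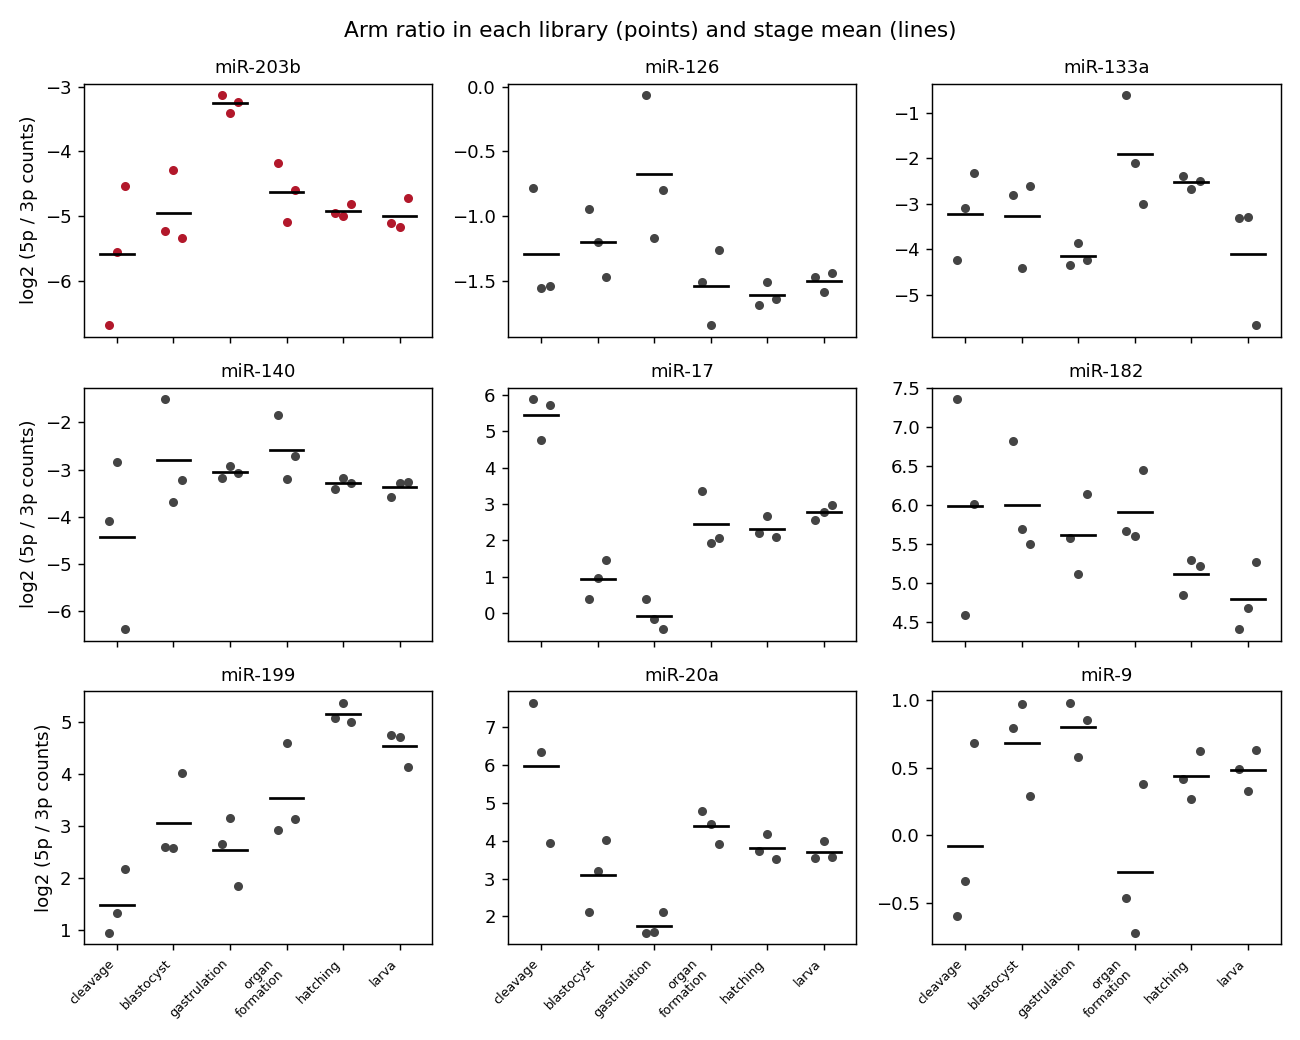
Log2 ratio of 5p to 3p counts in each library (points) and the stage mean (lines) for miR-203b (red) and the other 8 microRNAs with both arms tested. miR-203b has its highest ratios in gastrulation, where miR-126 and miR-9 also have their highest stage means (−0.68 and 0.81). miR-17, miR-20a and miR-133a have their lowest stage means there.

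Among the other pairs, miR-17, miR-199, miR-20a and miR-133a also passed the test of any change in arm ratio, with F = 35.4, 13.4, 8.85 and 3.28 (limma adjusted p = 7.11e-08, 5.87e-05, 0.000604 and 0.0492). miR-17 and miR-20a belong to a group of microRNAs of dividing cells. As log2 of 5p over 3p, their ratios rose from gastrulation to organ formation, while that of miR-203b fell. The rises were 2.52 (SE 0.45, adjusted p = 0.000198) and 2.62 (SE 0.66, adjusted p = 0.00400), from stage means of −0.07 ± 0.42 and 1.76 ± 0.32 (SD, n = 3), the lowest of the 6 stages. These signs follow the arm names. In organ formation the less counted arm was 3p for miR-17 (108 counts against 610) and miR-20a (70 against 1506), but 5p for miR-203b (49 against 1183). The share of that arm fell from gastrulation to organ formation in these 3 microRNAs. It rose for miR-133a, whose less counted arm was also 5p. In the step before, miR-17 and miR-20a had −1.01 (SE 0.45, adjusted p = 0.159) and −1.35 (SE 0.66, adjusted p = 0.170) and did not pass. The ratio of miR-133a also rose from gastrulation to organ formation, with 2.24 (SE 0.68, limma adjusted p = 0.0122). miR-126, of blood vessels, and miR-9, of the brain, moved the same way as miR-203b in organ formation, with −0.86 (SE 0.36, adjusted p = 0.0442) and −1.07 (SE 0.40, adjusted p = 0.0257). These signs again follow the arm names. In organ formation the less counted arm of miR-126 was 5p, while that of miR-9 differed between libraries (log2 ratios of −0.72 to 0.38).

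The ratio of miR-203a to miR-203b-3p, examined after its values were seen, was 0.872 ± 0.315 in cleavage, 0.720 ± 0.179 in blastocyst, 0.507 ± 0.0313 in gastrulation, 0.610 ± 0.148 in organ formation, 0.653 ± 0.0138 in hatching and 0.603 ± 0.0436 in larva (SD, n = 3). Cleavage 2, with 1.16, was the only library in which miR-203a had more counts than miR-203b-3p, and the other 17 lay between 0.480 and 0.920. The log2 ratio did not pass a permutation test over the stages (F = 1.85, p = 0.168, 100000 permutations), and passed without cleavage 1 (F = 5.45, permutation p = 0.0137).

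The members resembled each other across the 18 libraries, on a scale of log2(TMM-scaled CPM + 1). Pearson's r was 0.914 between miR-203a and miR-203b-3p, 0.830 between the miR-203b arms and 0.723 between miR-203a and miR-203b-5p. The first of these also depends on how reads matching both members were assigned, which was not stated. Besides the members, the 5 named microRNAs nearest to miR-203b-3p were miR-20a-5p (r = 0.917), miR-17-5p (0.884), miR-200b (0.783), miR-454b (0.684) and miR-15b (0.651). Nearest to miR-203a were miR-20a-5p (0.886), miR-17-5p (0.829), miR-200b (0.812), miR-429 (0.750) and miR-93 (0.736). Nearest to miR-203b-5p were miR-20a-3p (0.852), miR-17-5p (0.760), miR-20a-5p (0.749), miR-17-3p (0.709) and miR-92a (0.577). Each r describes likeness to 126 microRNAs over libraries that share stages and TMM factors.

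A list of 7 epithelial microRNAs held the 3 miR-203 members, miR-200a, miR-200b and miR-429, which repress factors that turn epithelium into mesenchyme, and miR-205, of stratified epithelium. All 7 were detected in all 18 libraries. From blastocyst to gastrulation 2 of the 7 rose, both of them miR-203b arms, and 0 fell, where 3.05% of all microRNAs were called higher and 3.96% lower. The median log2 fold change of the list was 0.83, beside 0 over all microRNAs and 0.27 over the 127 named ones, of which 4 were called higher and 2 lower. Without miR-203 the median of the list was 0.51, with 0 of 4 called. miR-200b had 0.83 (SE 0.36, adjusted p = 0.186), miR-429 had 0.75 (SE 0.61, adjusted p = 0.533), miR-200a had 0.27 (SE 0.36, adjusted p = 0.790) and miR-205 had 0.24 (SE 0.40, adjusted p = 0.865). From cleavage to blastocyst 1 of the 7 fell, miR-200a, with −1.32 (SE 0.36, adjusted p = 0.0368), where 1.52% of microRNAs were called lower.

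The later course of miR-205, the other microRNA of stratified epithelium, is given beside that of miR-203. In TMM-scaled CPM miR-205 stood at 1189.6, 1207 and 1283 in gastrulation libraries, 3542, 3127 and 2919.5 in those of organ formation, 5153, 5953 and 4994 in hatching and 4827, 4194 and 2269 in larva. All libraries from organ formation on lay above all gastrulation ones, whereas on this scale the miR-203 members had overlapping libraries in gastrulation and organ formation. As a share of listed counts miR-203a and miR-203b-3p did not overlap between these stages either. How many of all microRNAs lacked overlap there was not counted. The step of miR-205 to organ formation was 1.38 (SE 0.41, adjusted p = 0.0537) and did not pass. Hatching was higher than gastrulation, with 2.13 (SE 0.41, adjusted p = 0.00169), where 18.9% of microRNAs were higher, and larva was higher than cleavage, with 1.60 (SE 0.41, adjusted p = 0.00444), where 31.1% were. The rest of the list without miR-203 passed in neither contrast. For hatching against gastrulation miR-200a had 0.43 (adjusted p = 0.356), miR-200b 0.0023 and miR-429 0.57 (adjusted p = 0.485). For larva against cleavage miR-200a had −0.77 (adjusted p = 0.0742), miR-200b −0.21 (adjusted p = 0.644) and miR-429 0.48 (adjusted p = 0.511). The difference between the courses of miR-205 and miR-203 was not tested.

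**Figure D5:**
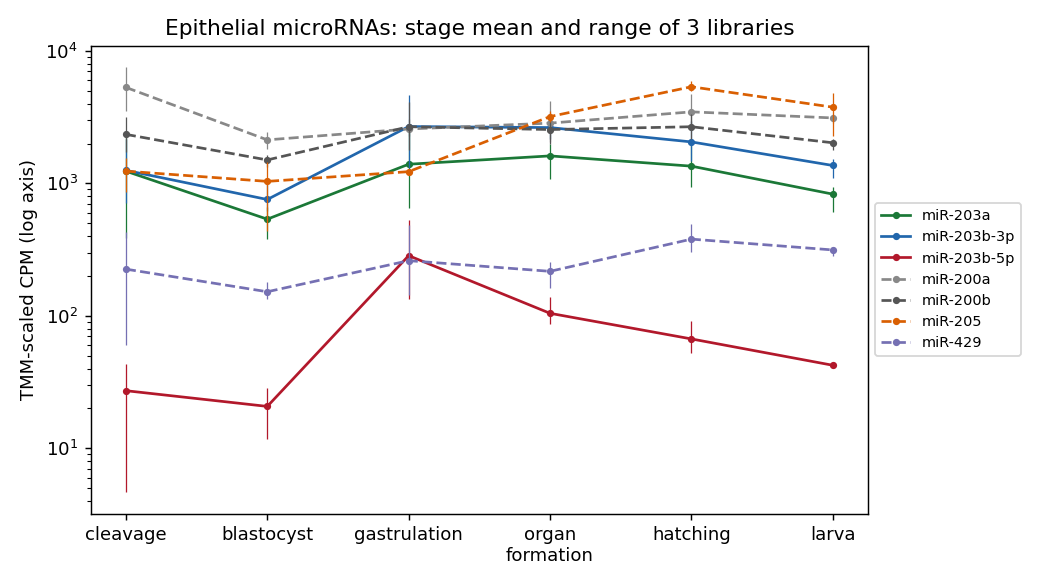
Stage mean (points) and range of 3 libraries (vertical lines) of the 7 epithelial microRNAs in TMM-scaled CPM on a log axis, with miR-203 members as solid lines. miR-203b-5p has its highest mean in gastrulation, 285, and miR-205 in hatching, 5367.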

How the data were processed

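The authors deposited whole-number counts of each mature microRNA, in 18 files of 1 library each, and a TPM table of the series. TPM gave only the library totals it implies (TPM totals), of which the listed counts made up 66.3 to 97.9%. FastQC and edgeR are in the submitters' processing notes, while the aligner, the build and the treatment of shared reads were not given. Predicted microRNAs are listed only from 5 counts up, and lower values entered as 0.

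Counts were filtered (filterByExpr, minimum 10), TMM-scaled and fitted with 1 mean per stage in edgeR 4.0.16 (R 4.3.3, glmQLFit robust, glmQLFTest, 12 residual degrees of freedom), which left 328 microRNAs, 127 named and 201 predicted. Adjusted p-values are Benjamini-Hochberg values of this edgeR test within a contrast (threshold 0.05) where no other test is given. SE is |log2 fold change| divided by √F. Overlap of libraries between stages is a description of the microRNAs named and was not counted over all microRNAs. Log2((5p + 0.5)/(3p + 0.5)) was tested with limma 3.58.1 for the 9 of 14 named pairs with both arms past the filter. Scripts were tested on simulated data, where the edgeR test of gastrulation against blastocyst recovered 18 of 37 microRNAs changed by a log2 of 3, with 0 false calls. Apart from the changed microRNAs, all stages were simulated from 1 mean profile, with no shift like that of miR-430, and 429 microRNAs were tested. The 0 false calls thus do not cover errors of scaling. The spread between libraries set in the simulation was below that fitted to the data (common biological coefficient of variation 0.855), so recovery in the data may be lower. A change that did not pass may thus have been missed. The limma test of arm ratios recovered 3 of 3 pairs changed by a log2 of 2, with the same added spread for all pairs and stages. In the data the SD of the miR-203b log2 ratio ran from 0.099 in hatching to 1.07 in cleavage, so this recovery may not hold there. Named besides the members were the epithelial list, the 5 nearest profiles per member and the arm pairs past the any-stage test; miR-126 and miR-9 were named after their values were seen. The members and lists were chosen with earlier results of these data known. Replicates were no repeat deposits (chi-square per degree of freedom 35.3 or more). Alternatives were other scalings and filters, DESeq2 1.42.0, a replicate block, 2 stages alone, omission of each library, and other settings of the arm ratio. Sequences of miR-203 were not used here, so predicted microRNAs with its seed were not looked for.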

Additional observations from a re-analysis of the deposited data

How the results depend on the processing

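Log2 fold changes of the members are given as miR-203a, miR-203b-3p and miR-203b-5p, and the cause of each change was not tested. From cleavage to blastocyst they were −3.58, −3.09 and −2.54 with library totals and −3.46, −2.98 and −2.40 with TPM totals (the library totals that TPM implies). With no filter on low counts miR-203b-3p had 0.033 and miR-203b-5p 0.43 there, and without 1 library miR-203b-5p ranged from −1.23 to 0.31. From blastocyst to gastrulation miR-203b-3p missed the threshold with RLE factors (1.56, adjusted p = 0.0720), TPM totals (2.10, 0.0640), no filter (1.50, 0.735), 10 CPM in 3 libraries (1.26, 0.150), named microRNAs only (1.35, 0.142), unlisted predicted microRNAs set to 4 (1.14), the replicate block (1.72, 0.0978), the 2 stages alone (1.78, 0.122), without blastocyst 2, blastocyst 3 and gastrulation 2 (1.60), and in omissions (1.16 to 2.16). miR-203b-5p missed it with no filter (3.40, adjusted p = 0.576) and without those 3 libraries (4.22). From gastrulation to organ formation miR-203b-3p was positive with RLE (0.29), TMM with singleton pairing (0.21), library totals (1.87), TPM totals (2.08), no filter (0.17), 10 CPM (0.45), named only (0.20), unlisted as 4 (0.72), 2 stages (0.50), DESeq2 (0.29) and without the 3 libraries (0.28), and in omissions ran from −0.36 to 0.64. miR-203b-5p was 0.53 and 0.72 with the 2 kinds of totals, and miR-203a 2.35 with TPM totals and −0.13 to 0.96 in omissions. From organ formation to hatching the members had 5.46, 5.33 and 4.98 with unlisted as 4 and −1.08, −1.15 and −1.45 with 2 stages, and miR-203b-3p and miR-203b-5p had −1.39 and −1.69 with named only and −1.27 and −1.55 with DESeq2, all of which passed. For larva against cleavage they had 5.39, 6.11 and 6.81 with unlisted as 4 and, in omissions, −1.56 to 0.46, −0.70 to 0.76 and −0.37 to 1.31. miR-203b-3p had −0.21 there with RLE and with DESeq2, −0.35 with 10 CPM, −0.54 with named only and −0.43 without the 3 libraries. For miR-203b-5p hatching and larva differed from gastrulation by 4.40 and 4.35 with unlisted as 4, and hatching by 0.0076 with TPM totals. The any-stage F of miR-203a was 6.30 with library totals, 6.53 with TPM totals, 2.59 with named only, 37.0 with unlisted as 4, each past the threshold, and 1.23 to 4.30 in omissions. That of miR-203b-3p was 3.81 with no filter and 2.93 without the 3 libraries, both short of the threshold, and 2.77 to 5.88 in omissions, and that of miR-203b-5p 4.30, short of it, with no filter. The difference of the arm ratio was 1.61 (blastocyst to gastrulation) and −1.25 (gastrulation to organ formation) with precision weights, whose F of 1.35 cannot decide any change over the stages. The difference was 2.05 from blastocyst to gastrulation without the 3 libraries. In omissions it was 0.092 to 1.16 from cleavage to blastocyst, 1.50 to 2.03 and −1.59 to −1.14 in the next 2 steps, −0.21 to 0.0096 from hatching to larva and 0.049 to 1.12 for larva against cleavage. The F of the miR-203a to miR-203b-3p ratio was 1.25 to 5.45.

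The count of microRNAs called from cleavage to blastocyst was 25, against 110 with library totals (12 higher, 98 lower), 102 with TPM totals, 16 with named only, 10 with 2 stages, 49 with DESeq2, 12 without the 3 libraries and 10 to 37 in omissions. From blastocyst to gastrulation it was 23, against 14 with TPM totals, 6 with no filter, 7 with named only, 11 with 2 stages, 43 with DESeq2, 13 with the replicate block and 14 to 24 in omissions. From gastrulation to organ formation it was 20, against 47 (41 higher, 6 lower) and 53 with the 2 kinds of totals, 4 with no filter, 2 with unlisted as 4, 32 with 2 stages, 61 with DESeq2 and 9 to 34 in omissions. From organ formation to hatching it was 89, against 24 with no filter, 38 with named only, 155 with 2 stages and 613 with unlisted as 4. From hatching to larva it was 1, against 2 with 10 CPM, 22 with named only, 136 with unlisted as 4, 2 with the replicate block, 49 with 2 stages, 29 with DESeq2, 4 without the 3 libraries and 1 to 5 in omissions. For larva against cleavage it was 200, against 130 with no filter, 85 with named only and 668 with unlisted as 4. Libraries with the same replicate number did not deviate together over 45 pairs of libraries (correlations of −0.252 to 0.356, median 0.015), so the numbers were not taken as pairing the samples. Depth limits miR-203b-5p most, with 13 and 9 counts in all over the cleavage and blastocyst libraries.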
